A study of Mus musculus with 20 samples.

Results

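Xenobiotic-metabolising cytochrome P450 (P450) genes were examined in the distal colon (DC) of male C57BL/6 mice fed resistant potato starch (RPS), which the sample labels call raw potato starch. The 10 genes are Cyp1a1, Cyp2b10, Cyp2c55, Cyp2c65, Cyp2d26, Cyp2s1, Cyp2w1, Cyp3a13, Cyp4b1 and Cyp4f14, found by matching the Ensembl identifiers of the count table to GENCODE mouse symbols, which located 10 of 10 among 26619 genes. They were chosen by their levels across the diets in these same mice. Their differences between diets are therefore described, and calls on them are given without being read as tests. From 3 weeks of age, all 20 mice ate the Total Western Diet (TWD), a feed matched to the nutrients of the average American diet, for 6 weeks. They then received the TWD alone (0% RPS) or the TWD with 2, 5 or 10% RPS for 3 more weeks (n = 5 mice per diet), so the controls carry the Western diet as well. Each library is from one mouse, and the tissue was a piece of whole colon wall taken close to the anus, so fewer cells of a type and less RNA per cell cannot be told apart in any value below. Diets follow the description label. For 3 mice the treatment label gives another level: RS10_717 is 5% by description and 2% by treatment, RS10_725 is 10% and 5%, and RS10_748 is 2% and 10%.

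P450 enzymes are haem proteins of the endoplasmic reticulum that insert an oxygen atom into drugs, dietary compounds, steroids and fatty acids, using electrons passed on by the reductase Por and by cytochrome b5. Several of their genes are switched on by ligand-activated receptors: the aryl hydrocarbon receptor (AhR) acts on Cyp1a1, and the nuclear receptors PXR and CAR act on members of the Cyp2b, Cyp2c and Cyp3a subfamilies. In the gut they sit mainly in the epithelium, where they meet ingested chemicals and products of the microbiota before these reach the liver.

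The promoters of the 3 genes whose levels stood farthest from the controls at some RPS level are shown to let a reader see what precedes each start. They are the 250 bases upstream of the annotated start on the gene's own strand, 5′ to 3′, taken from RefSeq on GRCm38.p6, with the core letters of the AhR response element (GCGTG, or CACGC where it lies on the other strand) in capitals.
Cyp1a1, chr9:57697363-57697612, plus strand: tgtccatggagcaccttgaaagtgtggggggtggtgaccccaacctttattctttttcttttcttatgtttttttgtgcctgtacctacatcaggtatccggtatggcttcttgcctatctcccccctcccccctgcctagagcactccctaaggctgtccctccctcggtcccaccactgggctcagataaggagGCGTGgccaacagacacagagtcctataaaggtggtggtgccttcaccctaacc
Cyp2w1, chr5:139352366-139352615, plus strand: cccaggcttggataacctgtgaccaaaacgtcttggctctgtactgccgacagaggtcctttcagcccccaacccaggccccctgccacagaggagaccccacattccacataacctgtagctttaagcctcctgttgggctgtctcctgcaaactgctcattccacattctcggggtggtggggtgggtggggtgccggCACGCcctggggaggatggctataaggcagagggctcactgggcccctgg
Cyp2c55, chr19:39006769-39007018, plus strand: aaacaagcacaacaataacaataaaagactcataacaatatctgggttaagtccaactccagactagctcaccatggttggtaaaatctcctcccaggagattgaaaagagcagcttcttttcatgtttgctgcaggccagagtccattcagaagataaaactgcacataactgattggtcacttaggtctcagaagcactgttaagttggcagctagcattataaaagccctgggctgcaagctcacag
In Cyp1a1 the core began 54 bases upstream of the start and a TATA box (TATAAA) 30 bases upstream. In Cyp2w1 the core lay on the opposite strand and its match began 50 bases upstream. The Cyp2c55 window held no core but a TATA box 29 bases upstream. Over windows of 300 bases that also take in the first 50 bases of the transcript, searched on both strands, GCGTG was present in 4 of 10 members (Cyp1a1, Cyp2b10, Cyp2w1 and Cyp4f14) and in 32.4% of 32851 promoters. TATAAA was present in 4 of 10 members (Cyp1a1, Cyp2c55, Cyp2c65 and Cyp2d26) and in 13.6% of promoters. The nuclear receptor half-site AGGTCA, found in 16.3% of promoters, and the clock-output element TTATGTAA, found in 0.938%, were in 0 of 10. None of the 4 motifs contains another, and a match is only a run of letters.

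The genes lie on 7 chromosomes. Positions are on GRCm39. Cyp2c55 (ENSMUSG00000025002, chr19:38995462-39031144) and Cyp2c65 (ENSMUSG00000067231, chr19:39049459-39082388) are neighbours with 18.3 kb between them. Cyp2s1 (ENSMUSG00000040703, chr7:25501895-25516338) and Cyp2b10 (ENSMUSG00000030483, chr7:25597045-25626049) are 80.7 kb apart. Cyp3a13 (ENSMUSG00000029727, chr5:137891193-137919882) and Cyp2w1 (ENSMUSG00000029541, chr5:139338372-139342788) share chromosome 5 at a greater distance. Cyp1a1 (ENSMUSG00000032315) is at chr9:57595211-57611107 and Cyp2d26 (ENSMUSG00000022445) at chr15:82674300-82678509. Cyp4b1 (ENSMUSG00000028713) is at chr4:115476281-115504999 and Cyp4f14 (ENSMUSG00000024292) at chr17:33120541-33136561. How reads matching several genes were counted is not stated. Of the 50-base windows of each gene's transcripts, 20.6% of those of Cyp2c65 recur in another gene, mostly Cyp2c66, against 8.32% for Cyp2b10 (mostly Cyp2b13), 7.10% for Cyp2d26, 4.24% for Cyp4b1, 2.38% for Cyp1a1 (all in Cyp1a2) and under 1% for the other 5. Cyp2c65, Cyp2b10 and Cyp2d26 thus share the most with other genes, which alone does not rank how certain their counts are. Cyp2c66 had 15 counts in all, against 2190 for Cyp2c65. Cyp2d26 shares most with Cyp2d22, which averaged 55.7 CPM. The part of other genes in these counts was not tested.

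Sequencing depth ran from 18429493 to 34974230 counts per mouse, with means of 32.8 ± 1.35 megacounts at 0% RPS and 24.3 ± 3.42 megacounts at 10% RPS (SD, n = 5). Of 26004 genes with a count, 17893 passed the filter on low counts. All 10 epithelial markers were present in every mouse, with a summed level of 15015 to 22368 CPM (counts scaled to megacounts of the TMM-adjusted library). Smooth muscle markers summed to 6003 to 13164 CPM (8 of 8 present), immune markers to 157 to 277 CPM (6 of 6), squamous markers of the anal lining to 2.95 to 12.5 CPM (8 of 9 in the table) and adipocyte markers to 33.5 to 202 CPM (5 of 5). Pancreas markers summed to at most 13.2 CPM except in RS10_721 of 5% RPS (4797 CPM) and RS10_784 of 10% RPS (427 CPM). Liver markers (7 of 8 in the table) summed to 52.4 to 208 CPM, of which Ttr made up at least 49.1 CPM in every mouse. Alb, the liver's main secreted protein, measured 99.2 CPM in RS10_703 of 0% RPS, 36.3 CPM in RS10_727 of 10% RPS and at most 4.60 CPM elsewhere. The epithelium score, the mean log2 CPM of its 10 markers, was 9.53 ± 0.20 at 0% RPS, 9.64 ± 0.08 at 2%, 9.84 ± 0.23 at 5% and 9.89 ± 0.14 at 10% (SD, n = 5).

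How abundant each P450 transcript is was compared per kb of annotated exon, averaged over the 20 mice. Cyp3a13, the mouse colon's member of the Cyp3a drug-metabolising subfamily, led with 55.1 ± 11.6 CPM per kb (SD, n = 20). Cyp2s1, an epithelial P450 found mostly outside the liver, followed with 28.7 ± 6.02 CPM per kb, and Cyp2c55, which oxidises arachidonic acid, with 20.6 ± 8.37 CPM per kb. Cyp4f14, an omega-hydroxylase of leukotrienes, stood at 10.97 ± 3.23 CPM per kb and Cyp2d26, of the drug-metabolising Cyp2d subfamily, at 7.23 ± 1.44 CPM per kb. These 5 transcripts made up the upper range of the set. The low range began with Cyp2w1, known from fetal colon and colon tumours, at 2.88 ± 1.39 CPM per kb and Cyp2c65 at 1.99 ± 0.655 CPM per kb. Cyp4b1, which activates some plant furans and aromatic amines, reached 0.461 ± 0.0878 CPM per kb. Cyp1a1, which oxidises polycyclic aromatic hydrocarbons, reached 0.153 ± 0.261 CPM per kb, and Cyp2b10, the classic CAR target of liver, 0.083 ± 0.0722 CPM per kb. Along this order, 3 pairs of neighbours differed by less than the larger of their SDs: Cyp2s1 and Cyp2c55, Cyp2w1 and Cyp2c65, and Cyp1a1 and Cyp2b10. The span from top to bottom was wide, and it placed Cyp3a13 below only Cyp2d34 (173 ± 36.6 CPM per kb) among the tested P450 genes of families 1 to 4.

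**Figure D1:**
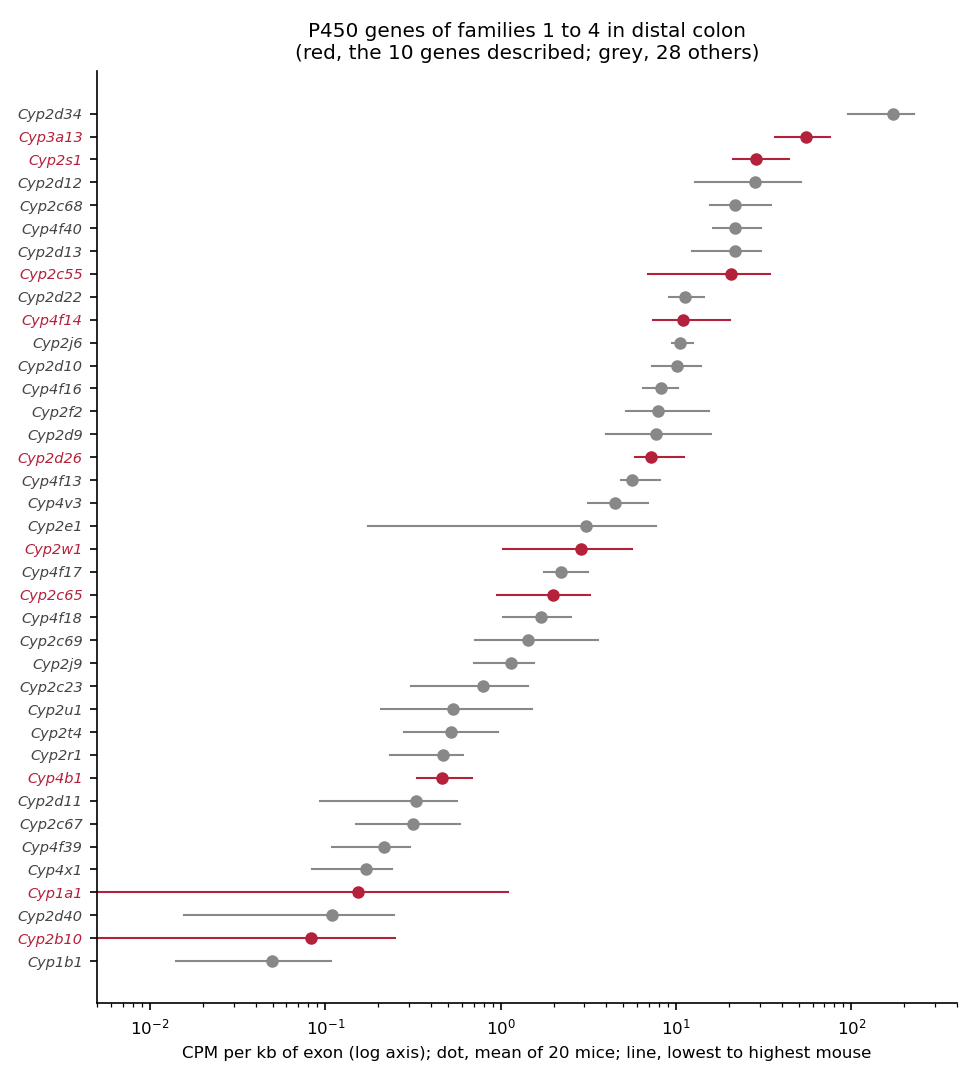
Each row is a P450 gene; the horizontal log axis gives CPM per kb of exon, the dot the mean of 20 mice and the line the lowest to the highest mouse (running off the axis for Cyp1a1 and Cyp2b10, which were at 0 in some mice). The 10 genes described are red and spread over nearly the whole order, from Cyp3a13 at 55.1 to Cyp2b10 at 0.083 CPM per kb; 28 other tested genes are grey.

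Against 0% RPS, 8 of the 9 members that passed the count filter had a lower level at 10% RPS, 8 of 9 at 5% and 9 of 9 at 2%. Their median log2 fold changes were -0.39, -0.25 and -0.17, beside medians of -0.01, -0.01 and -0.00 over all 17893 tested genes, of which 53.2, 52.0 and 50.4% were lower. The 3 comparisons share the same control mice, and the members were chosen by these very values. Cyp2b10 was below the filter. With thresholds of 0.05 on the adjusted p and 1.5 on the fold, edgeR called 0 members at each level, where it called 0.0391% of all genes at 10% RPS, 0% at 5% and 0% at 2%. At an unadjusted p under 0.05 there were 3, 4 and 0 members against 2718, 1644 and 253 of all genes. DESeq2 called Cyp2w1 at 10% RPS (1.25% of all genes), Cyp2c55 at 5% (0.195%) and 0 members at 2% (0.00386%). For a linear trend over RPS percent at an adjusted p of at most 0.05, both edgeR (2.10% of all genes) and DESeq2 (5.60%) called Cyp2w1 as falling and no other member. Nothing is read from these counts, since the same contrasts selected the genes. Full separation of the 5 mice of a diet from the 5 controls is likewise only described below. The share of all tested genes that separate so fully is not given here.

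**Figure D2:**
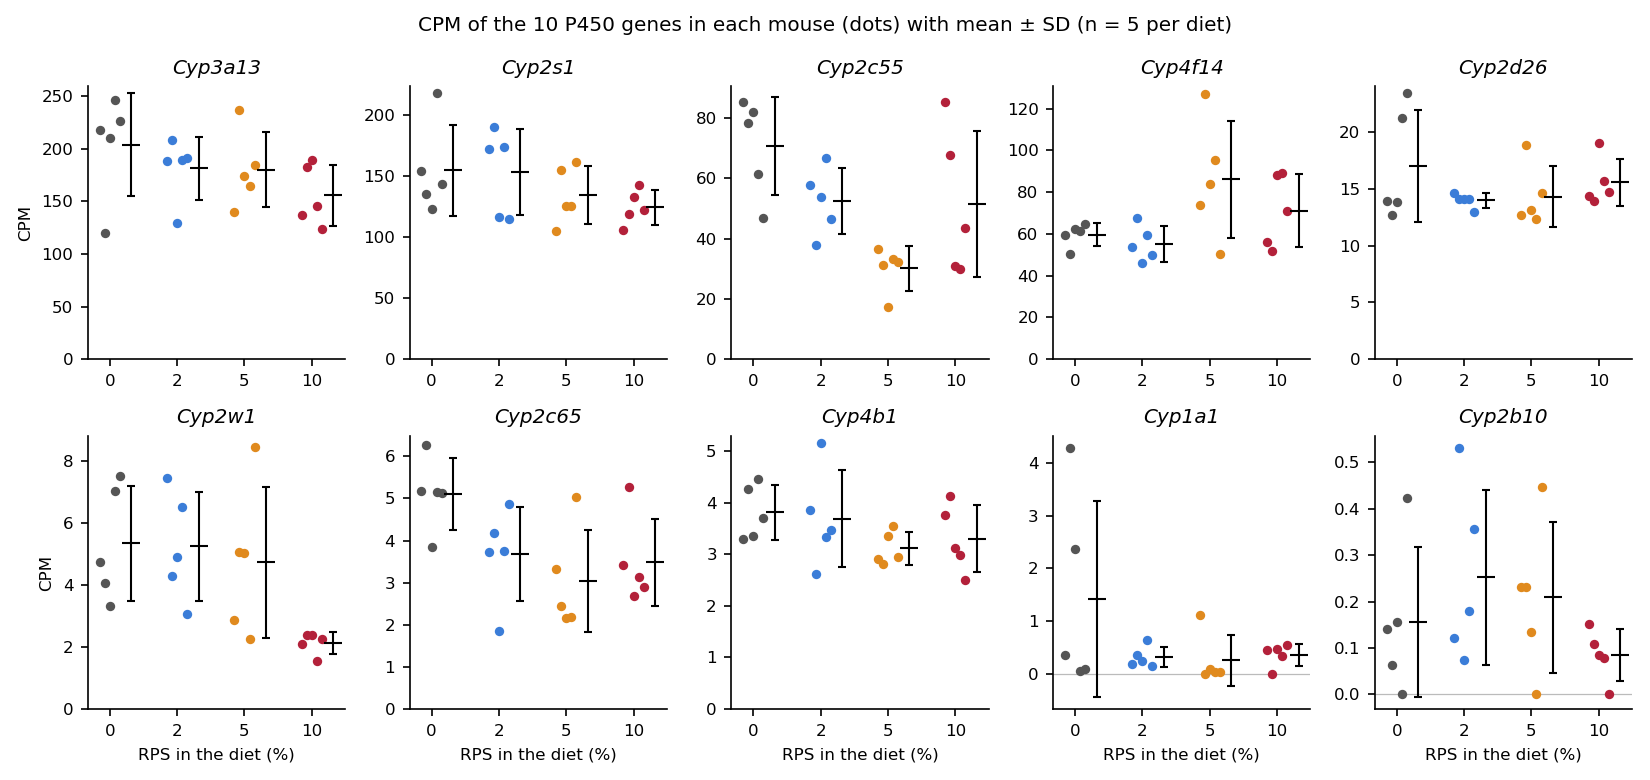
Each panel is a gene; the horizontal axis gives RPS in the diet in percent and the vertical axis CPM, with one dot per mouse and a bar for the mean ± SD of 5 mice. Cyp2c55 at 5% RPS and Cyp2w1 at 10% RPS lie wholly below their controls, while Cyp1a1 at 0% RPS is carried by 2 mice.

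Cyp2w1 had its lowest level at the highest dose. In the 0% RPS mice, by mouse number, it measured 4.76, 4.08, 3.32, 7.05 and 7.53 CPM. In the 10% RPS mice it measured 2.09, 2.39, 2.39, 1.55 and 2.27 CPM. All 5 of the latter lay below all 5 controls and close together. At 2% RPS the values were 7.48, 4.31, 4.91, 6.54 and 3.08 CPM, and at 5% RPS 2.87, 5.07, 5.04, 2.26 and 8.48 CPM. Both of these groups overlapped the controls, and the highest Cyp2w1 of any mouse was at 5% RPS. The mean was 5.35 ± 1.85 CPM in the controls and 2.14 ± 0.351 CPM in the 10% RPS mice (SD, n = 5), 2.50-fold lower, with a fitted log2 fold change of -1.32 ± 0.32 (SE) at 10% RPS, against -0.18 ± 0.30 at 5% and -0.03 ± 0.30 at 2%. The fitted slope was -0.13 ± 0.03 log2 units per percent of RPS. The epithelium score was higher in the 5 and 10% RPS groups than in the controls, and with that score as a covariate the log2 fold change at 10% RPS was -0.41 ± 0.29. Most of the difference in the score lay in Krt20 and Cdx2, whose log2 fold changes at 10% RPS were 0.91 and 1.44 against -0.02 to 0.26 for the other 8 markers. With the score of those 8 as a covariate, added after the data were seen, the value for Cyp2w1 was -0.98 ± 0.30. Total counts were lowest at 10% RPS, and with the total count as a covariate, an alternative added after the data were seen, it was -2.20 ± 0.41. Nothing is read from the trend call of Cyp2w1, since its values across the diets selected it. That call was lost under the treatment label and without the 3 mice of disagreeing labels. With Dbp or either form of the epithelium score as a covariate it was lost too. The same held on leaving out any of RS10_701, RS10_707, RS10_708, RS10_709, RS10_712, RS10_716, RS10_725, RS10_729, RS10_731 or RS10_784.

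Cyp2c55 had its lowest level at the middle dose. Control mice measured 85.5, 78.5, 82.2, 61.4 and 46.9 CPM. At 5% RPS the mice measured 36.7, 31.2, 17.3, 33.4 and 32.4 CPM. Every one of these 5 lay below every control. At 2% RPS the values were 57.9, 38.0, 54.0, 66.6 and 46.7 CPM, between the other groups and overlapping the controls. At 10% RPS they were 85.3, 67.7, 31.1, 29.8 and 43.7 CPM, so that 1 mouse was level with the highest control, 1 lay within the control range and 3 were below all controls. The group means were 70.9 ± 16.3, 52.6 ± 10.9, 30.2 ± 7.48 and 51.5 ± 24.2 CPM at 0, 2, 5 and 10% RPS, and the fitted log2 fold changes -0.43 ± 0.28, -1.23 ± 0.28 and -0.46 ± 0.28 (SE). Cyp2c55 was thus 2.35-fold lower at 5% RPS. Under the treatment label the value at 5% RPS was -0.83 ± 0.34.

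Its chromosomal neighbour Cyp2c65, a related epoxygenase of the gut, was lower at all 3 levels by smaller amounts. It measured 5.11 ± 0.855 CPM at 0% RPS, 3.67 ± 1.12 at 2%, 3.04 ± 1.22 at 5% and 3.49 ± 1.04 at 10% (SD, n = 5). At both 5 and 10% RPS, 4 of 5 mice lay below all controls, the exceptions being RS10_724 with 5.04 CPM and RS10_727 with 5.28 CPM. The log2 fold changes were -0.47 ± 0.25, -0.76 ± 0.25 and -0.56 ± 0.25 (SE). After removal of the diet means, the levels of the neighbours had a Pearson r of 0.25 over the 20 mice (Spearman rho of 0.31), which did not pass the threshold (permutation p = 0.314, adjusted p = 0.406).

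Cyp1a1 was scarce, and its difference from the controls rested on a pair of them. The 0% RPS mice measured 0.368, 4.27, 2.36, 0.0595 and 0.0904 CPM. The 4.27 CPM of RS10_703 came from 135 counts and the 2.36 CPM of RS10_704 from 76 counts. Of all 360 Cyp1a1 counts in the study, 229 were in the control mice. The 2% RPS mice had 0.201, 0.364, 0.258, 0.644 and 0.162 CPM. The 5% RPS mice had 1.12, 0, 0.101, 0.0359 and 0.0446 CPM, and the 10% RPS mice 0.456, 0, 0.469, 0.349 and 0.549 CPM. Every RPS group overlapped the controls, and 3 control mice lay within the range of the RPS-fed mice. A count of 0 allows up to 3 counts, which is 0.0850 to 0.163 CPM in these libraries. Group means were 1.43 ± 1.85, 0.326 ± 0.193, 0.261 ± 0.483 and 0.365 ± 0.216 CPM, with log2 fold changes of -2.11 ± 1.02, -2.37 ± 1.05 and -1.90 ± 1.02 (SE) at 2, 5 and 10% RPS. Without RS10_703 they were -1.12 ± 1.005, -1.38 ± 1.025 and -0.91 ± 1.01, and without RS10_717, which held the 1.12 CPM, the value at 5% RPS was -4.84 ± 1.28. RS10_703 was also the mouse with the most Alb. RS10_704 had 1.27 CPM of Alb and RS10_727, second in Alb, had 0 counts of Cyp1a1. The liver P450 Cyp1a2 was at 0.218 CPM (4 counts) in RS10_727, at 0.0949 CPM (3 counts) in RS10_703 and at 0 elsewhere. Other P450 genes below the count filter reached more in a single mouse. Cyp3a11 had up to 75 counts (2.37 CPM) of 109 in all, and Cyp2a12 up to 43 counts (1.36 CPM) of 147. The part of liver RNA in the Cyp1a1 values was not tested. With the epithelium score as a covariate the log2 fold change of Cyp1a1 at 10% RPS was -3.56 ± 1.27.

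Whether other AhR-responsive genes moved with Cyp1a1 was asked in the same mice. Ahrr, the AhR repressor and itself an AhR target, was highest in RS10_703 with 4.68 CPM, and its mean was 2.46 ± 1.38 CPM in the controls against 1.47 ± 0.331 CPM in the 10% RPS mice (log2 fold change -0.73, edgeR adjusted p = 0.250). Tiparp, another target, which modifies AhR by ADP-ribosylation, was likewise highest in RS10_703 with 25.2 CPM. Its mean nevertheless stood at 17.9 ± 4.23 CPM in the controls and 22.3 ± 0.881 CPM in the 10% RPS mice, the opposite direction (log2 fold change 0.32, edgeR adjusted p = 0.240). Of 6 tested AhR targets of 8 listed, 3 were lower and 3 higher at 10% RPS and 0 were called by edgeR or DESeq2 in any comparison, with 2 at an unadjusted p under 0.05 in edgeR at 10% RPS, 1 at 5% and 0 at 2%, and 3 for the trend. Over all tested genes the shares under that p were 15.2, 9.19 and 1.41% at 10, 5 and 2% RPS. For the trend the share was 19.1%. Within diets, Cyp1a1 and Ahrr had a Pearson r of 0.63 and a Spearman rho of 0.56 (permutation p = 0.0141 and 0.0214, adjusted p = 0.0619 and 0.0785 over 22 relations, n = 20), which missed the threshold, with r of 0.48 both without the 2 mice of most extreme Ahrr and without RS10_703. It passed without RS10_717 (r = 0.73, adjusted permutation p = 0.0293) and without RS10_721 (r = 0.68, adjusted permutation p = 0.0237). For Tiparp r was 0.53 (adjusted p = 0.0727) and for Cyp1b1, the third AhR-controlled P450, r was 0.38 (adjusted p = 0.201).

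**Figure D3:**
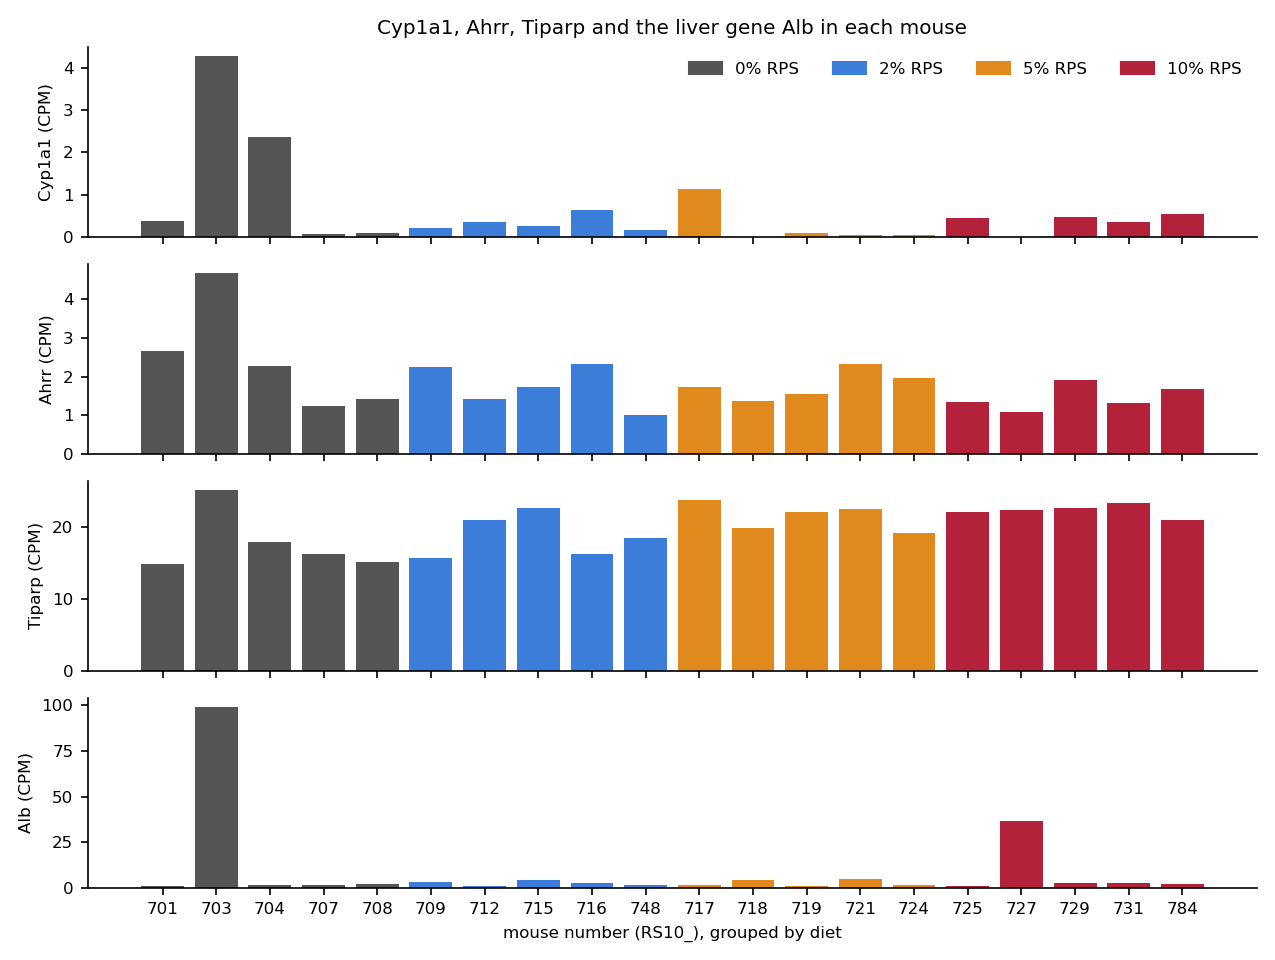
Bars give CPM in each mouse, grouped by diet along the horizontal axis, for Cyp1a1, the AhR targets Ahrr and Tiparp and the liver gene Alb. RS10_703 is highest for all 4 genes, RS10_704 is second for Cyp1a1 with little Alb, and Tiparp is at 20.9 to 23.3 CPM in all 10% RPS mice.

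Cyp3a13 and Cyp2s1, the most abundant members, had their lowest means at 10% RPS. Cyp3a13 was at 204 ± 49.0 CPM at 0% RPS, 181 ± 30.03 at 2%, 179.9 ± 35.8 at 5% and 155 ± 28.9 at 10% (SD, n = 5). Its 0% RPS mice measured 217, 119.5, 210.0, 246 and 226 CPM and its 10% RPS mice 137, 182, 189, 145 and 124 CPM. The groups overlap, and RS10_703 with 119.5 CPM was the lowest control. The log2 fold changes were -0.17 ± 0.18, -0.18 ± 0.18 and -0.39 ± 0.18 (SE). Cyp2s1, which AhR ligands can induce, was at 155 ± 37.3, 154 ± 35.1, 134 ± 23.5 and 124 ± 14.1 CPM, with log2 fold changes of -0.01 ± 0.16, -0.20 ± 0.16 and -0.32 ± 0.16. At 10% RPS, 3 of 5 mice were below all controls. With the epithelium score as a covariate the log2 fold change of Cyp2s1 at 10% RPS was 0.00, and -0.18 with the score without Krt20 and Cdx2.

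At 10% RPS, Cyp2d26 and Cyp4b1 had the log2 fold changes nearest 0. Cyp2d26 was at 17.0 ± 4.95, 14.0 ± 0.630, 14.3 ± 2.67 and 15.6 ± 2.07 CPM, and its higher control mean rested on RS10_707 with 21.3 CPM and RS10_708 with 23.5 CPM. Its log2 fold changes were -0.29 ± 0.15, -0.25 ± 0.15 and -0.13 ± 0.15 (SE), the last of which became 0.22 with the epithelium score as a covariate. Cyp4b1 was at 3.82 ± 0.532, 3.69 ± 0.940, 3.12 ± 0.321 and 3.30 ± 0.646 CPM, with log2 fold changes between -0.29 and -0.05. Cyp2b10 had 101 counts in all and 0 counts in 3 mice, with group means of 0.156 ± 0.161, 0.252 ± 0.189, 0.209 ± 0.163 and 0.0848 ± 0.0556 CPM. Only 11 of 20 mice had more than 3 counts of Cyp2b10, and no difference was detectable at this depth.

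Cyp4f14 was the exception, being higher at 5 and 10% RPS. Control mice measured 59.4, 50.5, 62.4, 61.6 and 64.7 CPM, the tightest control group of any member relative to its mean. At 5% RPS the mice measured 73.8, 127, 84.1, 95.6 and 50.5 CPM, so that 4 of 5 were above all controls and RS10_724 was at their lower end. At 10% RPS they measured 55.9, 51.6, 88.2, 89.0 and 71.0 CPM, with 3 of 5 above all controls. At 2% RPS the values, 45.9 to 67.8 CPM, overlapped the controls. Means were 59.7 ± 5.48, 55.4 ± 8.58, 86.1 ± 28.1 and 71.2 ± 17.5 CPM, with log2 fold changes of -0.11 ± 0.19, 0.53 ± 0.19 and 0.25 ± 0.19 (SE). With the total count as a covariate the last was 0.83.

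**Figure D4:**
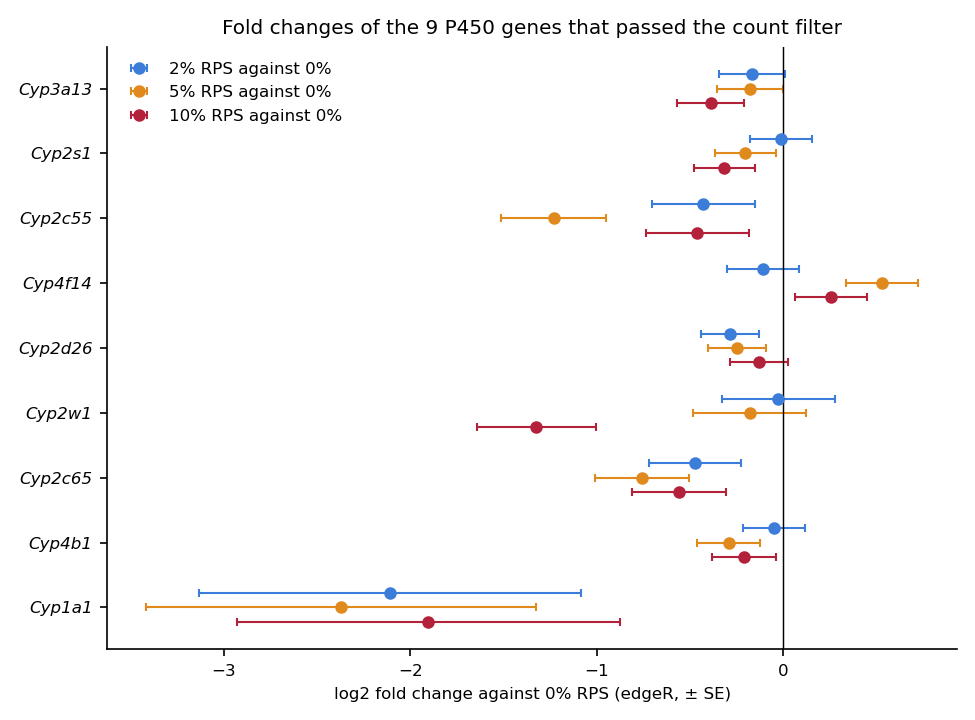
The horizontal axis gives the edgeR log2 fold change against 0% RPS with its SE for the 9 members that passed the count filter, in blue at 2%, orange at 5% and red at 10% RPS (n = 5 mice per diet). Cyp2c55 stands out at 5% RPS (-1.23) and Cyp2w1 at 10% RPS (-1.32), and Cyp1a1 has the widest errors. Cyp4f14 is the only member right of 0 at 5 and 10% RPS, and at 2% RPS it lies left of 0.

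Mice on the same diet also differed from one another. The genes were chosen by their levels across the diets, but with earlier results of these mice known. The relations below are therefore not fully independent of that choice. The SD of log2 CPM within diets was 1.57 for Cyp1a1, above 99.6% of tested genes, 0.53 for Cyp2w1, 0.47 for Cyp2c55 and 0.43 for Cyp2c65. It lay between 0.25 and 0.33 for the other 5 tested members, and the median gene had 0.22. A pair of partners, planned with those results known, were compared with every tested member after removal of the diet means, together with the 4 pairs above. They were Dbp, a transcription factor whose mRNA follows the daily clock, and the epithelium score. Of the 22 relations, 2 passed an adjusted p of 0.05 by Pearson's r. Correlations between members themselves, given as a description over libraries that share depth and tissue makeup, ran from -0.65 (Cyp1a1 and Cyp3a13) to 0.60 (Cyp2d26 and Cyp3a13).

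Cyp2c55 was high where Dbp was low. At 10% RPS the mice with 3.76, 10.3, 23.8, 44.2 and 59.6 CPM of Dbp had 85.3, 67.7, 43.7, 31.1 and 29.8 CPM of Cyp2c55. The order of one gene was the exact reverse of the other in that diet. Over the 20 mice with diet means removed, Pearson's r was -0.75 (permutation p = 0.00127, adjusted p = 0.0140) and Spearman's rho -0.82 (permutation p = 0.00037, adjusted p = 0.00407). The sign was negative in 4 of 4 diets, with r of -0.71, -0.47, -0.51 and -0.99 at 0, 2, 5 and 10% RPS. Without the 2 mice farthest from the median of Dbp, RS10_725 and RS10_703, r was -0.72. The adjusted permutation p rose to 0.0616 without the 3 mice of disagreeing labels (r = -0.68) and to 0.0583 without RS10_725 (r = -0.66). Mean Dbp was 55.8 ± 40.5 CPM in the controls and 28.3 ± 23.3 CPM in the 10% RPS mice, and with Dbp as a covariate the slope of Cyp2c55 over RPS percent went from -0.04 ± 0.03 to -0.09 ± 0.03 log2 units. The hour at which tissue was taken is not given in the sources used here.

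For the other members the relation with Dbp did not pass by Pearson's r, and for 4 of them its sign was positive with an r near 0.5 or above. For Cyp3a13 r was 0.61 (adjusted permutation p = 0.0619) and for Cyp2d26 r was 0.58 (adjusted p = 0.0619), although rho for Cyp2d26 was 0.66 with an adjusted permutation p of 0.0268. For Cyp4f14 r was 0.50 (adjusted p = 0.0727) and rho 0.64 (adjusted permutation p = 0.0382), and for Cyp2s1 r was 0.52 (adjusted p = 0.0707). Cyp4b1, like Cyp2c55, had a negative r, of -0.59 (adjusted permutation p = 0.0620), with a rho of -0.36 (adjusted permutation p = 0.264). The remaining relations with Dbp, of Cyp1a1, Cyp2c65 and Cyp2w1, had adjusted permutation p-values of at least 0.282.

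Cyp2w1 was low where the epithelium score was high. Pearson's r was -0.76 (permutation p = 0.00078, adjusted p = 0.0140) and Spearman's rho -0.78 (permutation p = 0.00023, adjusted p = 0.00407) over the 20 mice with diet means removed. It was negative in 4 of 4 diets, at -0.91, -0.60, -0.85 and -0.41. RS10_721, with the highest score of 10.2, had 2.26 CPM of Cyp2w1, the lowest at 5% RPS, and it also carried the pancreas markers. Without RS10_721 r was -0.67 (adjusted permutation p = 0.0176), and without both RS10_721 and RS10_707, the mice farthest from the median score, it was -0.65. Without the 3 mice of disagreeing labels r was -0.78 with an adjusted permutation p of 0.0616. With the score without Krt20 and Cdx2 r was -0.57 with an adjusted permutation p of 0.0686. The call was lost in both cases, while r stayed negative. The other members had adjusted permutation p-values of at least 0.0727 with the score, with r between -0.58 for Cyp2d26 and 0.47 for Cyp1a1.

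**Figure D5:**
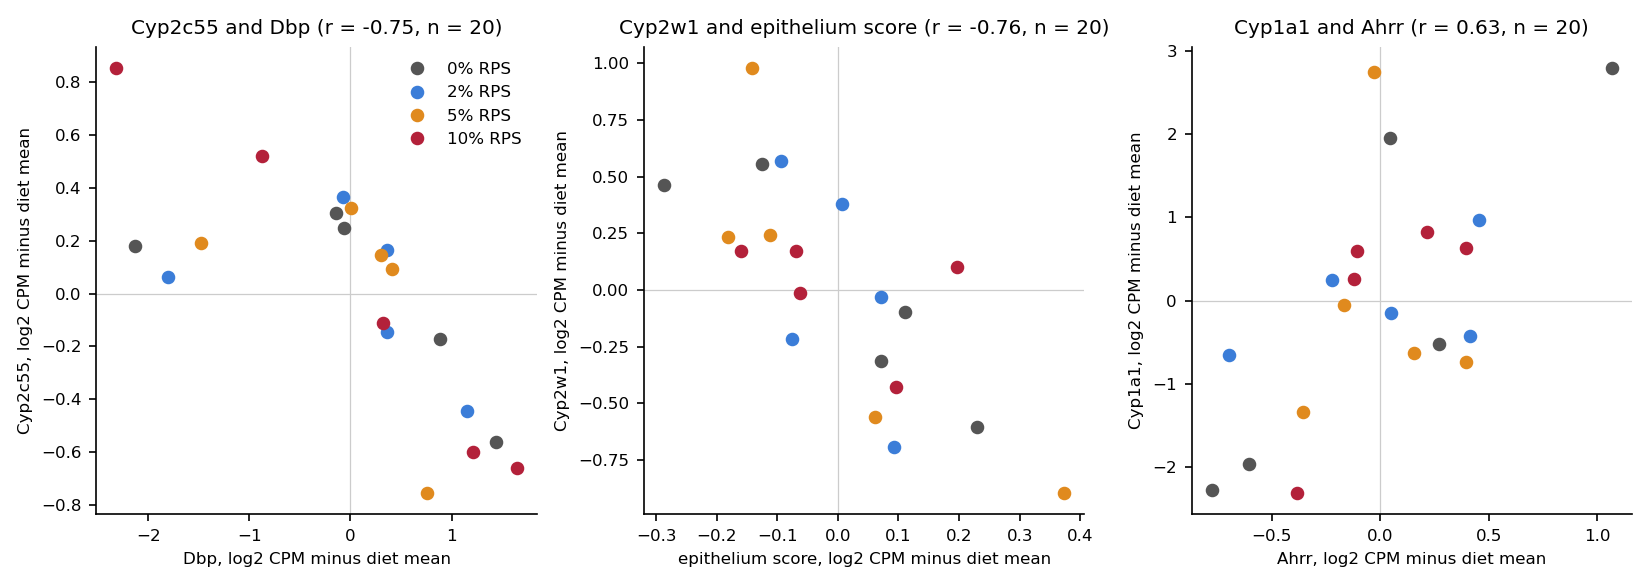
Each dot is a mouse, coloured by diet, with log2 CPM minus the mean of its diet on both axes: Cyp2c55 against Dbp, Cyp2w1 against the epithelium score, and Cyp1a1 against Ahrr (n = 20). The left and middle panels fall (r of -0.75 and -0.76); the right panel rises (r of 0.63) and did not pass the adjusted threshold.

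For each member the 3 tested genes with the most similar pattern within diets are given as a description (Pearson r over 20 mice with diet means removed). Cyp2c55 was closest to Macf1 (0.84), Cpm (0.84) and Rexo4 (0.82), and Cyp2c65 to Id2 (0.85), Rnasek (0.83) and P2ry14 (0.80). Cyp2w1 was closest to Shisa2 (0.84), Ston1 (0.80) and Jade2 (0.80), and Cyp1a1 to Ada (0.83), Sh3kbp1 (0.83) and Apol7c (0.83). Cyp2s1 followed Nek3 (0.90), Acot2 (0.84) and Zfp174 (0.83). Cyp3a13 followed Atp8b5 (0.89), Mlycd (0.87) and Sh3d21 (0.84), and Cyp2d26 followed Mblac2 (0.87), Rapgefl1 (0.86) and Clk1 (0.84). Cyp4b1 followed Wnt2b (0.80), Prpf3 (0.80) and Serac1 (0.79). Cyp4f14 followed Yif1b (0.84), the P450 gene Cyp2c69 (0.82) and Gpr108 (0.82). No other P450 gene of families 1 to 4 was among these.

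The other P450 genes of families 1 to 4, listed by name and not by value, show whether the members' direction was shared. Among 51 such genes 28 were tested, and 15 of 28 were lower at 10% RPS, 20 of 28 at 5% and 20 of 28 at 2%, with medians of -0.03, -0.13 and -0.12. The highest per kb of exon were Cyp2d34 (173 CPM per kb), Cyp2d12 (28.3), Cyp2c68 (21.7), Cyp4f40 (21.6) and Cyp2d13 (21.6), and their log2 fold changes at 10% RPS lay between -0.18 and 0.12. EdgeR called 0 of 28 at each level, with unadjusted p-values under 0.05 for 5, 4 and 0 at 10, 5 and 2% RPS. Over all tested genes the shares under that p were 15.2, 9.19 and 1.41%. DESeq2 called 3, 0 and 0. For the trend edgeR called only Cyp2d9, which rose, and DESeq2 called 5. Cyp2d9 measured 17.2, 11.3, 16.6, 19.7 and 16.5 CPM in the controls and 31.6, 22.6, 28.4, 44.7 and 30.1 CPM in the 10% RPS mice. All 5 mice at 10% RPS were above all controls, the reverse of Cyp2w1. Its slope was 0.09 ± 0.02 log2 units per percent (edgeR adjusted p = 0.0100) and its log2 fold change at 10% RPS 0.95 ± 0.19 (edgeR adjusted p = 0.0549), and 17.5% of its read-length windows recur in other genes. The call was lost under the treatment label and with either form of the epithelium score as a covariate.

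Receptors, electron donors and conjugating enzymes were read from lists drawn up by function. Of 18 tested receptors and partners of P450, among them Ahr, Arnt, Nr1i2 (PXR), Nr1i3 (CAR), Por and the cytochrome b5 genes, edgeR called 0 at each RPS level, with 4, 2 and 0 at an unadjusted p under 0.05 at 10, 5 and 2% RPS and 0 called by DESeq2. For the trend both tools called Cyb5b, the cytochrome b5 of the outer mitochondrial membrane, which rose from 235 ± 45.5 to 322 ± 61.7 CPM (slope 0.05 per percent, edgeR adjusted p = 0.0370). Of 6 tested PXR and CAR targets, 0 were called by either tool in any comparison, with 1, 1 and 1 at an unadjusted p under 0.05 at the 3 levels and 2 for the trend. The lowest p-values at 10% RPS were those of Aldh1a1, a retinal dehydrogenase (log2 fold change -0.30), and of the conjugate exporter Abcc3 (0.20). Over all tested genes, 15.2, 9.19 and 1.41% were at an unadjusted p under 0.05 at 10, 5 and 2% RPS. The share for the trend was 19.1%.

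Of 40 tested phase II and related enzymes, which add sugar, sulphate or glutathione groups to P450 products, 18 were lower and 22 higher at 10% RPS, and edgeR called 0 at each level, with 8, 4 and 1 at an unadjusted p under 0.05 and 1, 0 and 0 called by DESeq2, beside the same shares over all genes. For the trend in edgeR 2 fell and 1 rose, and DESeq2 called these and Sult2b1, where the tools called 2.10 and 5.60% of all genes. Sult1c2, a sulphotransferase, fell from 35.2 ± 9.002 to 21.4 ± 3.42 CPM, with all 5 mice at 10% RPS below all controls. Gstp2, a glutathione transferase, fell from 18.6 ± 2.84 to 14.6 ± 0.524 CPM. Sult1b1, a sulphotransferase for thyroid hormones and phenols, rose from 185 ± 19.4 to 235 ± 21.0 CPM. Their edgeR adjusted p-values for the trend were 0.0190, 0.0410 and 0.0299. For 10% against 0% RPS they were 0.0659, 0.0958 and 0.0861, above the threshold. Among the marker lists the trend called Krt20, a keratin of surface colonocytes, as rising (0.10 per percent, edgeR adjusted p = 0.0249) and Ttr as falling (-0.04 per percent, adjusted p = 0.0476). No gene of the smooth muscle, immune, pancreas, squamous, adipocyte or clock lists was called by edgeR in the trend, with 0, 1, 0, 2, 0 and 1 at an unadjusted p under 0.05, beside 19.1% of all tested genes. DESeq2 called Cd68, Dsg3 and Per1 among them. No gene at all was called by edgeR for the trend under the treatment label or with the full epithelium score as a covariate, so the trend calls of Cyb5b, Sult1c2, Gstp2, Sult1b1, Krt20 and Ttr were lost there too. Krt20 is itself a marker in that score, so with the score as a covariate its loss was built in.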

How the data were processed

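Distal colon RNA from 20 mice on 4 diets was sequenced by the authors from stranded poly(A) libraries as single-end reads of 50 bases. They removed low-quality bases, mapped the reads to GRCm39 in CLC Genomics Workbench and deposited raw counts per gene, not normalised and with no mice pooled. The annotation release is not given in the sources used here. Of 26619 identifiers, 26338 were matched to GENCODE vM39, which gave symbols, GRCm39 positions and exon lengths. RefSeq promoters use GRCm38.p6, and none of their coordinates are mixed with the others.

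Mice were grouped by the description label. Mouse numbers are unique, so nothing pairs mice across diets. Pairs within a diet differed beyond sampling noise (chi-square per degree of freedom of 9.74 to 67.9 over 40 pairs), so no library appeared to be deposited again. Counts were filtered with filterByExpr at its minimum count of 10, scaled by TMM and tested with the quasi-likelihood F-test of edgeR 4.0.16 in R 4.3.3, in one fit over the 4 diets, with Benjamini-Hochberg adjustment over all 17893 genes. DESeq2 1.42.0 was an alternative. The trend used RPS percent as a number and no fold threshold. CPM used TMM-scaled library sizes, and log2 CPM a prior count of 2. Correlations used 100000 two-sided permutations of mice within diets (Python 3.11.15, SciPy 1.17.1), or 10000 in the alternatives. Of 25 planned relations 22 were tested, since Cyp2b10 was below the filter. On simulated counts for 10% RPS against 0% RPS with 200 genes changed 2-fold among up to 17777, edgeR recovered at least 85.5%, with at most 3.93% of calls false, and made 0 calls where nothing was changed. The changed genes were drawn only from those above a set mean level, which left out genes as scarce as Cyp1a1. Counts were drawn for each gene independently, so differences that real mice share across genes were absent.

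Named genes are the members, the called genes of each list or else the 2 with the lowest unadjusted p at 10% RPS, the 5 highest other P450 genes per kb, the partners of the planned relations and the 3 genes most alike each member. Members and lists were chosen with earlier results of these data known. SEs come from the edgeR fit, which includes the spread between mice, and SDs are between mice. The floors for a count of 0 cover counting error only. Alternatives covered the test, scaling (RLE), the count filter, the prior count (0.5), the labels, each mouse left out, and Dbp, the epithelium score or the total count as a covariate. The epithelium score without Krt20 and Cdx2 and the total count were added after the data were seen.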

Additional observations from a re-analysis of the deposited data

Results flagged for a closer look

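Single mice far from the other 4 of their diet were looked for in the 40 combinations of the 10 genes and 4 diets with Dixon's ratio, and 5 were found. Chance gives about 2 if values are normal and independent. Low counts and genes measured in the same mice do not meet this, so the 5 are not read as an excess. RS10_717 at 5% RPS had 1.123 CPM of Cyp1a1, with 0.1015 CPM in the next mouse; it is one of the mice whose treatment label differs. RS10_719 at 5% RPS had 17.32 CPM of Cyp2c55, with 31.21 CPM in the next, and it had the highest Dbp of its diet (78.3 CPM). RS10_727 at 10% RPS had 5.278 CPM of Cyp2c65, with 3.422 CPM in the next, and carried 36.3 CPM of Alb. For Cyp3a13, RS10_703 at 0% RPS had 119.5 CPM, with 210.0 CPM in the next, and RS10_715 at 2% RPS had 129.6 CPM, with 188.4 CPM in the next. Both of the latter mice had the lowest Dbp of their diets (9.52 and 10.6 CPM), and RS10_703 the most Alb. The part of Dbp or of liver RNA in these values was not tested.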

How the results depend on the processing

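The log2 fold changes at 10% RPS of Cyp1a1 (-3.56 to -0.91), Cyp2c55 (-0.88 to -0.32), Cyp2c65 (-1.09 to -0.26), Cyp3a13 (-0.53 to -0.11) and Cyp4b1 (-0.55 to -0.12) kept their sign under every alternative run, as did those of Cyp2w1 (-2.20 to -0.41) and Cyp4f14 (0.16 to 0.83). That of Cyp2d26 changed sign in 3 alternatives (-0.21 to 0.22) and that of Cyp2s1 in 1 (-0.49 to 0.00). Nothing is read from the counts of members called, since the same contrasts selected the members. Of members called at 10% RPS (0 in edgeR), DESeq2 and the total count as covariate gave 1 each, and leaving out each mouse 0 to 1 (1 without RS10_703, RS10_704 or RS10_727). At 5% RPS DESeq2 gave 1. The 1 member called for the trend became 0 under the treatment label, without the 3 mice of disagreeing labels and with Dbp or the epithelium score, with or without Krt20 and Cdx2 (0 each), as covariate, and 0 to 1 on leaving out each mouse. Of other P450 genes called at 10% RPS (0 in edgeR), DESeq2 gave 3, and RLE scaling, Dbp or the total count as covariate 1 each, with 0 to 2 on leaving out each mouse (2 without RS10_703, 1 without RS10_704, RS10_712, RS10_721 or RS10_727). Their trend count of 1 became 5 in DESeq2, 0 under the treatment label, 2 with Dbp, 0 with the epithelium score, 0 with that score without Krt20 and Cdx2, and 2 with the total count as covariate, and 1 to 5 on leaving out each mouse (5 without RS10_727, 4 without RS10_703, 3 without RS10_704 or RS10_715, 2 without RS10_718 or RS10_725). The 2 relations that passed became 1 with the score without Krt20 and Cdx2, 0 without the 3 mice of disagreeing labels and 1 to 8 on leaving out each mouse (1 without RS10_725, 8 without RS10_721, 5 without RS10_784). Over all genes, 7 calls at 10% RPS became 211 in DESeq2, 0 under the treatment label, without the 3 mice or with either score, and 5 to 188 on leaving out each mouse (188 without RS10_727), and 375 trend calls became 973 in DESeq2, 0 under the treatment label or with the epithelium score, 18 with that score without Krt20 and Cdx2, and 24 (without RS10_784) to 1148 (without RS10_727). The causes were not tested. No paired analysis was possible because mouse numbers are not shared between diets. Cyp1a1 and Cyp2b10 had at most 135 and 16 counts in a mouse.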

Other observations

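Besides Cyp2d9, DESeq2 called 4 other P450 genes for the trend, named here after their values were seen. Cyp2c69 rose from 1.90 ± 0.358 CPM in the controls to 4.03 ± 1.964 CPM with 10% RPS (SD, n = 5; DESeq2 adjusted p = 0.00968), although 54.5% of its read-length windows recur in other genes, mostly Cyp2c40. Cyp2u1, a fatty acid hydroxylase, fell from 5.01 ± 3.26 to 2.13 ± 0.734 CPM (DESeq2 adjusted p = 0.0148). Cyp4f17 fell from 10.8 ± 2.01 to 8.497 ± 0.481 CPM (DESeq2 adjusted p = 0.0470), and Cyp4v3, a fatty acid omega-hydroxylase, fell from 20.3 ± 5.10 to 14.6 ± 2.35 CPM (DESeq2 adjusted p = 0.0317). These p-values are for the trend. For 10% against 0% RPS the DESeq2 adjusted p-values were 0.0475, 0.0291, 0.0937 and 0.101 in the same order of genes. The edgeR adjusted p-values of these 4 for the trend were 0.0541, 0.0687, 0.0838 and 0.0687. Within subfamilies the directions at 10% RPS were mixed: Cyp2c69 was higher where its relative Cyp2c55 was lower, and Cyp4f17 was lower where Cyp4f14 was higher. Whether such pairs of relatives differ in their response was not tested.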
